A study of Mus musculus with 4 samples.

Results

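The 8 genes described here, of uracil excision, mismatch repair and nick sealing, were read on all 4 arrays of a study of the retinoblastoma protein Rb in mouse embryonic fibroblasts (MEFs): Ung, Neil3, Msh6, Msh3, Pms2, Exo1, Fen1 and Lig1. They were chosen by a measured value, since Ung had the highest ratio of the Rb-deleted to the parental array among all genes, and the other 7 were taken with it as repair partners that act at replicated DNA. That ratio is therefore given as a description. The 8 genes have 19 of the 45281 probes on the array. Of the 8, 5 had at least 1 probe detected on at least 1 array (Ung, Msh6, Pms2, Fen1 and Lig1) and belong to the 12616 genes analysed, while Exo1, Msh3 and Neil3 were detected on no array.

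The study asked which phosphorylated forms of Rb are active. Its arrays compared how transcription is regulated by wild-type Rb and by Rb that cannot be phosphorylated by cyclin-dependent kinases. Every array held MEFs of mixed FVB;129 strain that, in the study's methods, carry a floxed Rb gene (Rb f/f). The parental array (no Cre) held cells given a solution without TAT-Cre and medium without virus, each in 2 treatments of 1 h with 3 h between them. The Rb-deleted array held cells given TAT-Cre, a Cre protein that enters cells, on the same schedule, and medium without virus. The other arrays, WT Rb-HA and ΔCdk Rb-HA, held cells given TAT-Cre and a retrovirus for tagged wild-type Rb or for a phospho-mutant Rb that lacks the Cdk sites, in 2 infections of 1 h with the same interval. According to the methods, but not to the sample labels, all cells, parental included, had been contact inhibited in early G1 phase, released for 4 hr and given doxorubicin, a topoisomerase II inhibitor, at 100 ng/ml for 3 hr. In ratios to parental, loss of Rb cannot be told apart from exposure to TAT-Cre, and on the virus arrays infection is added to both. Each condition had 1 array, so no difference below has a replicate check and no p-value was computed. Errors are bead standard errors (SE), the spread between the beads of a probe on 1 array, and they hold neither culture nor preparation error.

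Uracil enters DNA when a polymerase uses dUTP in place of dTTP or when cytosine loses its amino group. A DNA glycosylase cuts the base out, an endonuclease opens the strand, a polymerase refills the gap and a ligase seals it. Mismatch repair corrects bases mispaired by the polymerase: a MutS dimer finds the mismatch, a MutL dimer nicks the new strand and an exonuclease removes it. Both routes work at the replication fork and share the sliding clamp PCNA and Lig1 with the joining of Okazaki fragments. Uracil excision also shares Fen1 with it. Many genes of DNA replication are E2F targets, which Rb represses.

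Mean intensity was 336 to 346 on the 4 arrays, 15950 to 16740 probes were detected (detection p-value below 0.01), and probes at background read 38.7 to 40.2. Rb1, on chromosome 14, read 543 on the parental array and 160 to 181 on the other 3 at its brightest probe, so the virus arrays did not show the added Rb there. Whether that probe, at transcript position 4421, lies in the deleted part or in the viral Rb is not given in the sources used here. By immunoblot, the study reported ectopic Rb at physiologic levels in such cells, so the low reading does not show that added Rb was absent. All 8 fibroblast markers (such as Vim and Col1a1) were detected on every array. Their median log2 ratios to parental were -0.15 after Rb deletion, -0.01 with WT Rb-HA and -0.40 with ΔCdk Rb-HA. Col3a1 was 1.66-fold lower than parental after Rb deletion and 1.98-fold lower with ΔCdk Rb-HA, and no fibroblast marker was past 1.6-fold higher. In ΔCdk Rb-HA over WT Rb-HA, 7 fibroblast markers were below 0 and 1 above (median -0.24). Of 7 leukocyte markers, 6 were detected (Ptprc, the pan-leukocyte antigen, was not), and their intensities summed to 8400 in parental cells, 4411 after Rb deletion, 3964 with WT Rb-HA and 4890 with ΔCdk Rb-HA. Each of the 6 was lower than on the parental array on all 3 others. All ratios to parental below compare arrays that also differ in these markers, and ΔCdk Rb-HA over WT Rb-HA compares arrays that differ in the fibroblast markers. The part of these differences in those ratios was not tested. None of 4 endothelial markers was detected on any array. Of 4 epithelial markers, 3 were detected on at least 1 array (Krt8 and Krt18 on all, Epcam on none), and of 3 muscle markers 2 were (Des on all, at 411 to 514, and Myod1 on none).

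Values given in a row below keep 1 order of arrays: parental where it is included, then Rb-deleted, then WT Rb-HA, and ΔCdk Rb-HA last. Ung, on chromosome 5, encodes uracil-DNA glycosylase, the main enzyme that removes uracil from DNA. Its brightest probe (transcript position 1662) read 110 ± 5.7 in parental cells, 490 ± 20 after Rb deletion, 243 ± 10 with WT Rb-HA and 253 ± 9.1 with ΔCdk Rb-HA (deposited intensity ± bead SE). Parental cells were lowest and Rb-deleted cells highest, and the arrays with added Rb lay between them. After background correction and normalization, the log2 ratio of Rb-deleted to parental was 2.46 ± 0.11 (5.49-fold), the value that chose it, and the next gene, Mcm3, had 2.32. The ratio to parental was 1.37 ± 0.12 with WT Rb-HA (2.59-fold) and 1.47 ± 0.11 with ΔCdk Rb-HA (2.77-fold). Of all 12616 genes, 5 had a higher ratio than Ung with WT Rb-HA and 26 with ΔCdk Rb-HA. Ung was thus above parental on every array that had received TAT-Cre. ΔCdk Rb-HA and WT Rb-HA did not differ beyond their bead error (log2 ratio 0.09 ± 0.09).

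**Figure D1:**
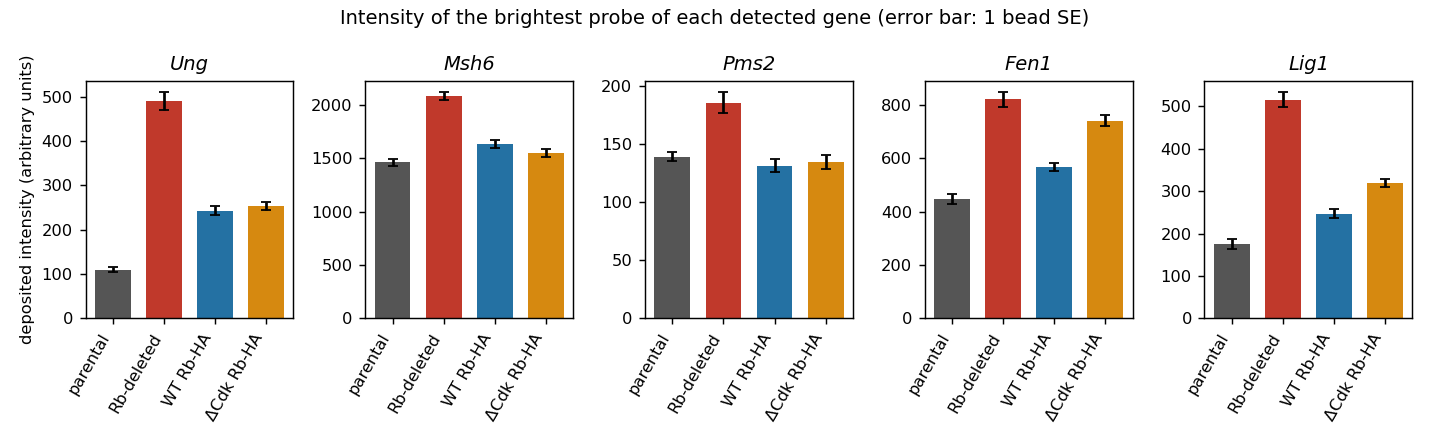
Deposited intensity (linear axis from 0, arbitrary units) of the brightest probe of each of the 5 detected genes on 1 array for each condition, with bars for 1 bead SE. Each gene was highest on the Rb-deleted array, and Fen1 and Lig1 were higher on the ΔCdk Rb-HA than on the WT Rb-HA array.

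The other 4 Ung probes were dim, so the size of the Ung ratio rests on 1 probe. The probe at position 745, in the coding part of the transcript, read 45.4 on the parental array, where it was not detected, and 90.3, 69.6 and 69.2 on the other 3. It too was highest on the Rb-deleted array, with the arrays with added Rb within their bead error of each other (log2 ratio of ΔCdk to WT 0.04 ± 0.18), and with a ratio of at least 2.05-fold for Rb-deleted over parental. Such a bound takes, for the array where the probe was not detected, whichever is higher of its normalized value there and the lowest value of any detected probe. Its sequence shows the stretch of transcript behind that second reading.
Ung probe at 745: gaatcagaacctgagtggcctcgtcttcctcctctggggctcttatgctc
A further probe, at position 1453, was detected on the Rb-deleted array only (57.1, against 44.5 to 51.9 on the others). The 2 probes nearest a transcript start (at positions 7 and 15 of 2 different transcript records) were detected on no array, at 34.4 to 40.2. Taking the mean of the detected probes in place of the brightest lowered the Ung ratios to parental to 1.52, 0.74 and 0.91, still past 1.6-fold, and Ung then ranked 9 among all genes in Rb-deleted over parental.

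**Figure D2:**
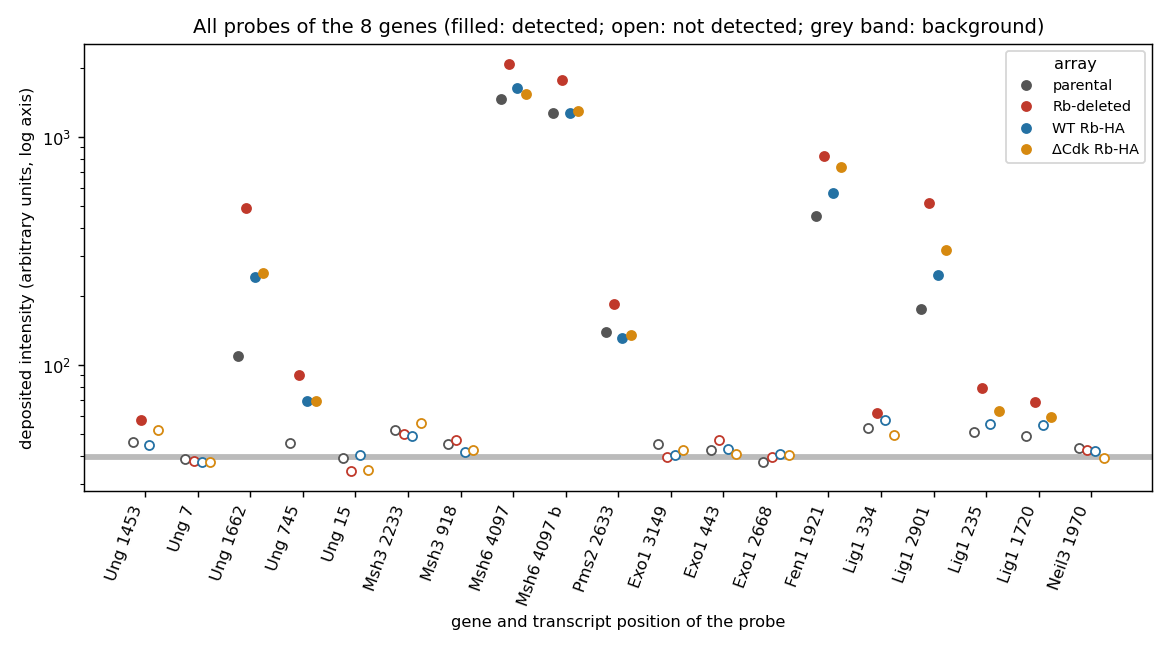
Deposited intensity (log axis, arbitrary units) of all 19 probes of the 8 genes, named by gene and transcript position, with 1 point per array. Filled points were detected and open points were not, and the grey band is the intensity at background (38.7 to 40.2). The 3 probes of Exo1, 2 of Msh3 and 1 of Neil3 lie near the band on all arrays.

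Smug1 and Tdg, which can also remove uracil, did not share the Ung values. Of 11 DNA glycosylases, 7 were analysed, and Ung alone passed 1.6-fold (0.68 on the log2 scale, the study's filter) against parental on any array. Smug1, which removes uracil from single and double strands, had log2 ratios to parental of -0.15, -0.42 and -0.11. Tdg, the thymine glycosylase, stood at 0.04, -0.07 and 0.01, with an SE of 0.09 on each ratio but WT Rb-HA over parental (0.11). Mbd4, which acts on mismatches at methylated CpG sites, was dim, at 50.4 to 62.4, and was not detected on the parental array. Its ratios to parental are therefore bounds of at least 1.16-fold, 1.13-fold and 1.11-fold, which cannot show whether it rose as Ung did. Ung aside, the median of the other 6 was 0.16 on the Rb-deleted array, where that of all genes was 0.02. Neil3, on chromosome 8, encodes a glycosylase for oxidized bases that is made in dividing cells. Its only probe read 38.9 to 43.2, at background on all 4 arrays, so its level could not be compared.

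Among 4 genes that set the supply of dUTP and dTTP, 3 were analysed. Tyms, thymidylate synthase, read 495, 964, 813 and 997. It was above parental by 1.05, 0.79 and 1.14 on the log2 scale, past 1.6-fold on each, and unlike Ung it was not highest on the Rb-deleted array. Dut, the dUTPase that keeps dUTP out of DNA, read 79.6, 125, 90.8 and 87.6, with log2 ratios to parental of 0.88, 0.24 and 0.21. Dut was past 1.6-fold on the Rb-deleted array alone.

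Msh6, on chromosome 17, encodes a subunit of the MutS dimer that binds single mispairs. Its brighter probe read 1465 ± 34, 2082 ± 38, 1634 ± 37 and 1547 ± 37. The Rb-deleted array was highest, 0.57 ± 0.04 above parental on the log2 scale (1.49-fold), short of 1.6-fold. The ratio to parental was 0.22 ± 0.05 with WT Rb-HA and 0.17 ± 0.05 with ΔCdk Rb-HA, and the last 2 arrays did not differ beyond their bead error (ΔCdk over WT -0.05 ± 0.05). The second probe read 1276, 1779, 1271 and 1298, and its ratios to parental were 0.54, 0.06 and 0.12. It is shown beside the first because the pair shares 49 of 50 bases, in capitals, and so gives nearly the same reading rather than an independent one.
Msh6 probe, first: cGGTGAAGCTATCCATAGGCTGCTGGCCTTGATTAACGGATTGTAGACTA
Msh6 probe, second: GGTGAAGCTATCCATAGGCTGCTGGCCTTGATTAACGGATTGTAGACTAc

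Pms2, on chromosome 5, is the MutL subunit that cuts the strand. It read 139 ± 3.7, 185 ± 8.8, 131 ± 5.7 and 135 ± 6. Only the Rb-deleted array stood apart, 0.51 ± 0.09 above parental (log2, 1.42-fold), and both arrays with added Rb were at the parental level within bead error (-0.09 ± 0.09 and -0.01 ± 0.09). Msh3, on chromosome 13, forms the MutS dimer for longer loops, and Exo1, on chromosome 1, is the exonuclease that removes the nicked strand. Neither was detected. The Msh3 probes read 41.4 to 55.5, with a lowest detection p-value of 0.0128 on the ΔCdk Rb-HA array, and the Exo1 probes 37.6 to 46.7.

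Of 8 mismatch repair genes in all, 4 were analysed. Mlh3, a MutL homolog, had log2 ratios to parental of 0.05, 0.17 and 0.07. The list's medians against parental were 0.54, 0.16 and 0.12, and none of its genes passed 1.6-fold with WT Rb-HA or ΔCdk Rb-HA. The meiotic homologs Msh4 and Msh5 were not detected.

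Fen1, on chromosome 19, is the flap endonuclease that trims displaced strands in long-patch repair and on Okazaki fragments. Its 1 probe read 449 ± 19, 821 ± 27, 567 ± 16 and 741 ± 20. Its order differed from that of Ung: ΔCdk Rb-HA lay with Rb-deleted (log2 ratio -0.09 ± 0.06), and WT Rb-HA lay nearer to parental. Against parental the log2 ratios were 0.95 ± 0.08 (1.93-fold), 0.41 ± 0.08 and 0.86 ± 0.08 (1.81-fold).

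Lig1, on chromosome 7, is the DNA ligase that seals nicks behind the fork. Its brightest probe (position 2901) read 175 ± 11, 516 ± 18, 247 ± 11 and 320 ± 9.7. From low to high the order was parental, WT Rb-HA, ΔCdk Rb-HA and Rb-deleted, and all neighbours differed by more than 2 bead SE. The log2 ratios to parental were 1.71 ± 0.12 (3.28-fold), 0.59 ± 0.13 and 1.03 ± 0.12 (2.05-fold), so WT Rb-HA fell short of the limit and the others passed it. With the mean of the detected probes these ratios were 1.01, 0.28 and 0.47, and ΔCdk Rb-HA no longer passed. The other 3 probes were not detected on the parental array. The probe at position 235 read 50.7, 78.9, 55.3 and 62.5, that at 1720 read 48.9, 69.0, 54.8 and 59.2, and that at 334 read 52.7, 61.8, 57.6 and 49.3. The probes at 235 and 1720 were detected on the Rb-deleted and ΔCdk Rb-HA arrays, Rb-deleted being the higher, and not with WT Rb-HA. For Rb-deleted over parental they give at least 1.70-fold and 1.39-fold. The probe at 334 was detected on the Rb-deleted array only, and shares 37 bases with the probe at 235 (capitals), so these 2 readings overlap in sequence.
Lig1 probe at 334: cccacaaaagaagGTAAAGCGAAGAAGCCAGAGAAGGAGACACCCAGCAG
Lig1 probe at 235: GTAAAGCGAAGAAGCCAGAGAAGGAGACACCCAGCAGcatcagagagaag

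Other genes that act beside Fen1 and Lig1 were read from a list of 17 genes of Okazaki fragment and nick processing, of which 16 were analysed. Fen1 and Lig1 aside, 7 of the other 14 were past 1.6-fold over parental after Rb deletion, 0 with WT Rb-HA and 3 with ΔCdk Rb-HA, where 2.14%, 0.888% and 2.58% of all genes were. The medians of the 14 were 0.66, 0.30 and 0.52. After Lig1, the highest on the Rb-deleted array was Pold1, the catalytic subunit of polymerase delta, with log2 ratios of 1.30, 0.41 and 0.73. Rfc4, a subunit of the clamp loader, had 1.05, 0.49 and 0.75, and Rnaseh2c, a subunit of the enzyme that removes RNA from DNA, had 0.65, 0.56 and 0.82. Pcna, the clamp itself, had 0.30 ± 0.11, 0.00 ± 0.11 and 0.42 ± 0.11 and did not pass the limit. Of 10 genes that act after the glycosylase in base excision repair, 8 were analysed and 1 was past 1.6-fold over parental: Parp1, which binds strand breaks, at 1.01 on the Rb-deleted array and 0.32 and 0.26 on the others. Apex1, the endonuclease that acts next to Ung, had 0.40, 0.14 and 0.50.

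**Figure D3:**
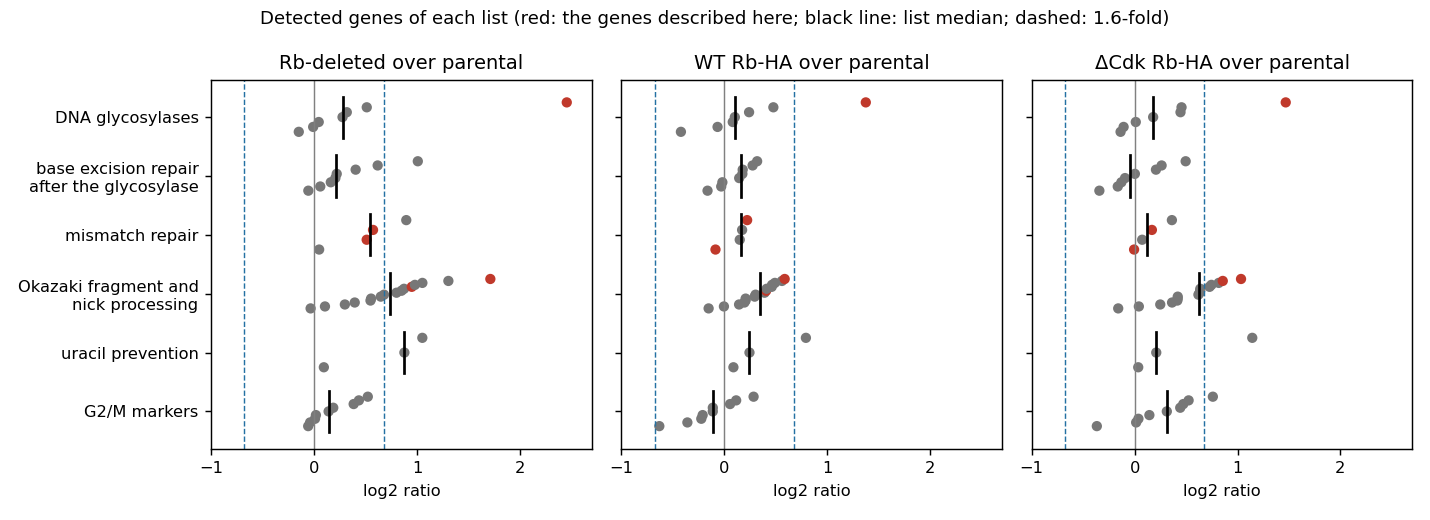
Log2 ratio to parental on the other 3 arrays for the detected genes of 6 lists, 1 point per gene, with the 5 genes described here in red, list medians as black lines and 1.6-fold as dashed lines. Ung stands apart from the other 6 glycosylases on each array, and the Okazaki fragment list, Fen1 and Lig1 included, has medians of 0.74, 0.35 and 0.63.

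Against the parental array, 3 of the 5 detected genes (Ung, Lig1 and Fen1) were past 1.6-fold higher on the Rb-deleted array and 0 were lower, where 2.14% of all genes analysed were higher and 2.98% lower; since this ratio chose the group, nothing is read from that count. On the WT Rb-HA array 1 of 5 (Ung) was higher and 0 lower, against 0.888% and 2.46% of all genes. On the ΔCdk Rb-HA array 3 of 5 (Ung, Lig1 and Fen1) were higher and 0 lower, against 2.58% and 3.3%, and 2 of 5 were higher with the mean of the detected probes. The medians of the 5 were 0.95, 0.41 and 0.86, where those of all genes were 0.02, 0.01 and -0.01. These 3 ratios share the parental array, so a low parental reading raises all of them at once.

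The next comparison set each array with added Rb against the Rb-deleted array, which is also part of the ratio that chose the group. A high Rb-deleted reading lowers these ratios, so nothing is read from their counts or ranks. The cells with added Rb had received retrovirus and the Rb-deleted cells medium without virus, so added Rb and infection cannot be told apart. Lig1 was 2.18-fold lower with WT Rb-HA (log2 ratio -1.13 ± 0.09) and Ung 2.12-fold lower (-1.08 ± 0.09), and they ranked 5 and 6 from the lowest of all 12616 genes. Pms2 was at -0.60 ± 0.11, Fen1 at -0.54 ± 0.06 and Msh6 at -0.35 ± 0.05, each beyond 2 bead SE and short of 1.6-fold. Of the 5, 2 passed the limit downward and 0 upward, against 0.484% and 0.539% of all genes. All 5 were below 0, as were 53.7% of all genes. With ΔCdk Rb-HA, Ung was 1.98-fold lower than on the Rb-deleted array (-0.99 ± 0.08) and Lig1 stood at the very edge of the limit (-0.68 ± 0.07). Again 2 of 5 were lower and 0 higher, against 1.95% and 2.31% of all genes. Pms2 was at -0.52 ± 0.11 and Msh6 at -0.41 ± 0.04, while Fen1 did not differ beyond its error. The count for ΔCdk Rb-HA was 1 without background correction, and 0 with the mean of the detected probes, where Ung had -0.61 and Lig1 -0.54.

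In the wider lists, Parp1 (-0.69 ± 0.06) and Pold1 (-0.89 ± 0.06) were also past 1.6-fold lower with WT Rb-HA than on the Rb-deleted array. With ΔCdk Rb-HA, Parp1 (-0.75 ± 0.07) and Xrcc1 (-0.75 ± 0.08), the scaffold that brings the ligase to single-strand breaks, passed the limit. Tyms did not differ from the Rb-deleted array beyond 2 bead SE with ΔCdk Rb-HA (0.09 ± 0.06).

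**Figure D4:**
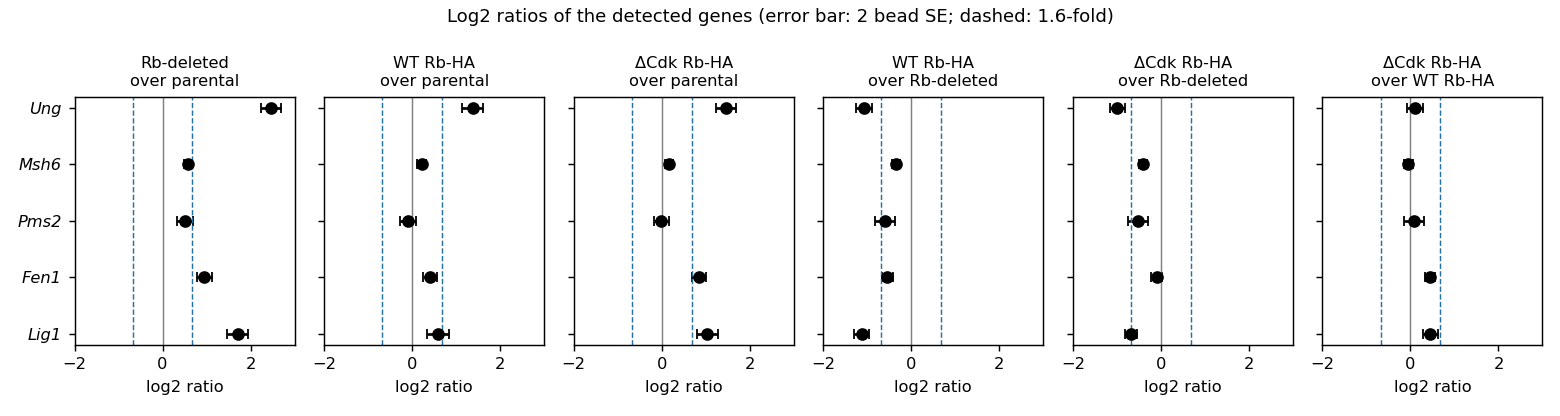
Log2 ratios of the 5 detected genes in the 6 comparisons of the 4 arrays, with bars for 2 bead SE and dashed lines at 1.6-fold. Fen1 and Lig1 lie at 0.45 in ΔCdk Rb-HA over WT Rb-HA, while the bars of Ung, Msh6 and Pms2 reach 0.

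ΔCdk Rb-HA over WT Rb-HA uses neither array of the ratio that chose the group, and it divided the 5 genes. Fen1 was 0.45 ± 0.06 higher with ΔCdk Rb-HA on the log2 scale (1.37-fold) and Lig1 0.45 ± 0.08 higher (1.36-fold). Ung (0.09 ± 0.09), Pms2 (0.08 ± 0.11) and Msh6 (-0.05 ± 0.05) were within 2 bead SE of 0, and averaging its overlapping probes put Msh6 at 0.01. No gene of the 5 passed 1.6-fold in either direction, against 0.84% of all genes higher and 1.01% lower. Of all genes, 3.67% had a higher ratio than Fen1 and 3.78% a higher ratio than Lig1. The mean of the detected probes lowered Lig1 to 0.18. Its dim probes at 235 and 1720 had 0.36 ± 0.18 and 0.25 ± 0.18. The probe at 334 went the other way (-0.33 ± 0.13) but was detected on neither of these arrays. The other 14 genes of the Okazaki fragment list had a median of 0.22, and Pcna at 0.42 ± 0.12, while the mismatch repair list had a median of 0.01.

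Markers of G2 and M phase moved in the same comparison. All 9 detected of 12 were above 0 in ΔCdk Rb-HA over WT Rb-HA (median 0.40), and all 9 were lower with WT Rb-HA than on the Rb-deleted array (median -0.30). Their summed intensity was 2092, 2389, 2015 and 2560. Their part in the values of Fen1 and Lig1 was not tested. In these bulk RNA samples, more cells in a phase and more RNA per cell cannot be told apart.

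**Figure D5:**
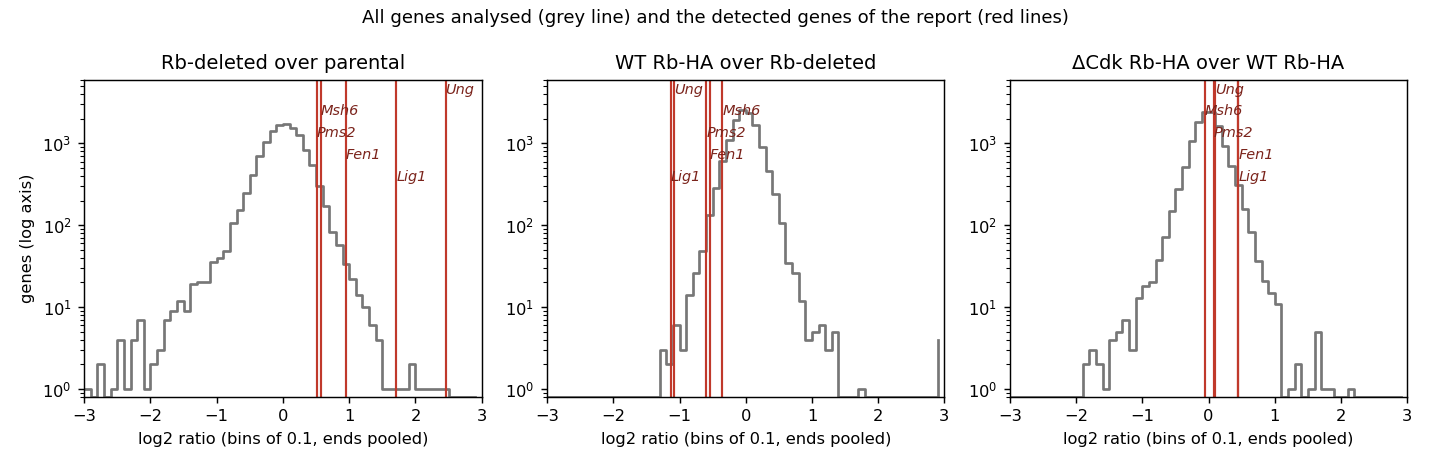
Number of genes (log axis) by log2 ratio in bins of 0.1 for all 12616 genes analysed (grey line) in 3 comparisons, with the 5 detected genes as red lines. Ung and Lig1 lie at the low end of WT Rb-HA over Rb-deleted, at -1.08 and -1.13, and all 5 lie between -0.05 and 0.45 in ΔCdk Rb-HA over WT Rb-HA.

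Genes whose values were most like those of Ung were found by the Euclidean distance over the 3 log2 ratios to parental, which rest on 4 arrays. The 5 nearest were Mcm3 (0.39), Mcm6 (0.43), LOC100045677, a predicted transcript similar to Mcm3 (0.45), Mcm2 (0.66) and Chaf1b (0.74). The Mcm genes encode subunits of the replicative helicase and Chaf1b a subunit of a histone chaperone. Mcm3 had ratios of 2.32, 1.54 and 1.80 to parental. The repair genes were farther from Ung, with Lig1 at 1.17, Fen1 at 1.89, Msh6 at 2.56 and Pms2 at 2.84. The ratio that chose Ung is among the 3, and the distance follows size, so lower ratios alone place a gene farther away.

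Promoters were read from RefSeq sequences on assembly GRCm38.p6, from 250 bases before to 50 after the start, and were found for 7 of the 8 genes. They are shown because many replication genes carry an E2F site near the start. The E2F-type octamers TTTCCCGC, TTTGGCGC, TTTCGCGC and TTTGCCGC, on either strand, were in the promoters of 3 of the 7 genes (3 of their 10 promoters), against 2.26% of all 32851 promoters of this length. These were Lig1 (chr7:13278841-13278870, plus strand), Msh6 (chr17:87975054-87975083, plus strand) and Msh3 (chr13:92355187-92355216, minus strand, 2 overlapping octamers), and the matches are in capitals.
Lig1 promoter: cgccaaagtgcGCGCGAAAtctgtgtggcg
Msh6 promoter: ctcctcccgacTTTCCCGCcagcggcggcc
Msh3 promoter: ttgccgtcaagTTTGGCGCGAAAtcgcagc
The genes with a match were thus 1 past 1.6-fold on the Rb-deleted array, 1 short of it and 1 not detected. The promoters read for Ung (1 start), Fen1, Pms2 and Neil3 did not hold these letters in this window. The Ung probe at position 7 of its transcript does hold TTTGCCGC, so the search of 1 Ung start does not cover every start of the gene. The motif CCAAT, on either strand, was in the promoters of Pms2 and Msh6, against 37.4% of all promoters. The 250 bases before the Ung start (chr5:114130185-114130434, plus strand) are 62.8% G and C, where the median promoter has 52.4%, and are printed for the gene with the largest ratio.
Ung upstream: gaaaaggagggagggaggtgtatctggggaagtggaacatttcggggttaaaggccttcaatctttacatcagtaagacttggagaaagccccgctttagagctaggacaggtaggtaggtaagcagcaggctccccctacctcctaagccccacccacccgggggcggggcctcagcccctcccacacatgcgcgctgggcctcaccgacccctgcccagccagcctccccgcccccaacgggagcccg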

How the data were processed

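The authors deposited, for every probe of 4 Illumina MouseWG-6 v2.0 BeadChips, a linear intensity, the mean of its beads, not yet normalized. The deposited table also gives a detection p-value, the bead SE and the bead number (median 44 per probe). How the authors normalized is not described in the sources used here. Sample labels gave the groups. Background was corrected by normexp inferred from the detection p-values (offset 16) and the arrays were quantile normalized, in limma 3.58.1 (R 4.3.3). Genes with a probe of detection p-value below 0.01 on at least 1 array were kept, each read by its probe of highest mean value. Other steps used Python 3.11.15 with pandas 2.3.3. With 1 array per condition, a gene past 1.6-fold was counted and nothing was tested. The number of arrays limits the precision. The calculation was checked on simulated data. The 8 genes and the gene lists were chosen with earlier results of these data known. Genes named were those 8, list genes past 1.6-fold in any comparison, Pcna, Dut, Smug1, Tdg, Mbd4 and Apex1 in any case, the 5 nearest to Ung, and Rb1. Mlh3, Msh4, Msh5 and the markers were named after their values were seen. Probe positions come from more than 1 genome build, so only chromosomes are given. Some genes of the lists are not reported here. A planned search of protein sequences was not run. Alternatives changed the background correction, normalization, probe filter, probes per gene and fold limit.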

Additional observations from a re-analysis of the deposited data

How the results depend on the processing

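Of 66 recomputed counts of genes past the limit (over the 5 detected genes, over 6 with a detection p-value limit of 0.05 and over 8 with no filter), 60 were within 1.5 times the reported count. With a 1.5-fold limit, 2 genes in place of 1 were higher with WT Rb-HA than parental. The count of genes lower with ΔCdk Rb-HA than Rb-deleted, 2 as reported, was 1 without background correction, 1 with a background offset of 50, 1 where the limit had to be passed by 2 bead SE, 0 at 2-fold and 0 with the mean of the detected probes. Of 150 recomputed ratios of single genes, 118 stayed within 1 bead SE and 0 of those past the limit changed sign. Msh6 in ΔCdk over WT ran from -0.08 to 0.01 and Pms2 in ΔCdk over parental from -0.05 to 0.01. The Ung ratio of Rb-deleted to parental ran from 1.52 to 2.48, and with an offset of 50 Mcm6 (2.10) stood above Ung (2.07). The number of all genes higher on the Rb-deleted than the parental array was 270, against 143 without background correction, 124 with an offset of 50, 115 past the limit by 2 bead SE, 444 at 1.5-fold and 67 at 2-fold. The cause of these shifts was not tested, apart from the limits themselves. No paired analysis was possible because each condition had 1 array, and leaving out a replicate was impossible for the same reason. Probes near background limit what can be read of Exo1, Msh3 and Neil3.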
